A study of Mus musculus with 13 samples.

Results

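The genes described here are 37 mouse genes that make cholesterol and the lipids of myelin, out of 21938 protein-coding genes of the annotation. The rule that defines them is a list of names and uses no measured value, and all 37 were found in the annotation. By their roles they fall into 7 genes of the mevalonate steps, 10 of the squalene and sterol steps, 4 that control sterol synthesis through SREBP, 9 of fatty acid synthesis and 6 of sphingolipid and galactolipid synthesis. Gjc3 is the exception in the list, since it encodes a gap junction protein of oligodendrocytes and no lipid enzyme.

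ChIP-Seq, in which DNA bound to a protein or a modified histone is precipitated and sequenced, was done for H3K4me3 (K4) and H3K27me3 (K27) in cultured neural stem cells (NSCs), in progenitors of oligodendrocytes (OPCs) and in oligodendrocytes that had newly formed (NFOs). OLIG2 was precipitated from OPCs and NFOs. RIP-Seq, which sequences the RNA that comes down with a protein, was done with an OLIG2 antibody and with control IgG. Each of these 10 conditions has 1 library, so no value carries an error between animals or cultures, and no difference between cell types was tested. NSCs came from the cortices of E14.5 CD-1 embryos, were purchased and were grown in culture with EGF and FGF. OPCs and NFOs came from the brains of C57BL/6 mice at postnatal day 7 and were purified by immunopanning on PDGFRα and on GalC. No group was mutant or treated. Every sample is labelled C57BL/6, although the growth protocol names CD-1 for NSCs, so the cell stage, the strain and growth in culture cannot be told apart in any comparison with NSCs. For the 6 histone libraries, the antibody label names the other mark than the title does, and the titles were used. By the titles, 53.1 to 76.9% of K4 peaks and 15.9 to 30.1% of K27 peaks lay within 2 kb of a TSS. Both RIP-Seq libraries are labelled as NFOs while the methods of the study describe NSCs, so no cell type is given for them here. The control library is titled as input of the OLIG2 RIP-Seq, while the methods name IgG. It is called IgG here after the methods.

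H3K4me3 marks the start sites of active or poised genes, and H3K27me3 is laid down by Polycomb repressive complexes at silenced genes. A promoter that carries both marks is called bivalent and is often a developmental gene that is silent but can still be activated. OLIG2 is a basic helix-loop-helix transcription factor that binds E-boxes (CANNTG) and is needed to form the oligodendrocyte lineage. Myelin is a lipid-rich membrane, and oligodendrocytes make its cholesterol themselves, through the mevalonate pathway under control of the SREBP transcription factors, and its galactolipids from ceramide.

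Fold enrichment is the ratio of ChIP to control reads in a peak. It is not on a common scale between libraries, since peaks were called in each library alone and the number of reads is unknown, so the main values are also given as a percentile among the protein-coding genes with a K4 peak in the same library. The deposited K4 lists hold 18284 to 33292 peaks and the K27 lists 12688 to 36069. K4 peaks in NFOs were narrow. For protein-coding genes with a K4 peak within 2 kb of a transcription start site (TSS), the median width of the widest such peak was 2161 bp for NSCs, then 1369 bp for OPCs, and 579 bp for NFOs. In NFOs such a peak covered a TSS in 42.3% of these genes, against 92.9% in NSCs and 87.9% in OPCs. The labelled cell type was checked against marker genes. These did not set the cell types apart. K4 peaks lay at all 5 NSC markers and all 5 OPC markers in both NSCs and OPCs, and in NFOs at 3 and 4 of them. Of the NFO markers, Cnp had a K4 peak in every cell type, Mbp and Myrf lacked one only in NFOs, and Mog, Mag and Enpp6 had none. K4 peaks in NFOs were thus missing also at genes that define the cell type. In such bulk samples a mark held by fewer cells and a mark that is weaker in each cell cannot be told apart. Of other cell types, 4 neuron markers had K4 at 4, 4 and 3 of them in NSCs, OPCs and NFOs. K4 lay at 1 of 3 endothelial markers in each, at 1 of 3 astrocyte markers in NSCs and at 0 later, and at 0 of 4 microglia markers throughout. Their part in the results was not tested.

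Most of the lipid genes carried K4 alone at their start sites in every cell type. K27 was listed at a share of them near that of all protein-coding genes in NSCs, at fewer in OPCs and at 0 in NFOs. A K4 peak was listed within 2 kb of a TSS for 35 of 37 genes in NSCs, against 64.3% of all protein-coding genes. In OPCs it was 36 of 37, against 60.8%, and in NFOs 28 of 37, against 43.6%. In all 3 cell types 27 genes had a K4 peak, against 41.8% of protein-coding genes. K27 peaks were listed for 5 of 37 genes in NSCs (15.1% of protein-coding genes), 2 in OPCs (16.4%) and 0 in NFOs (9.56%). K4 stood alone at 30 genes in NSCs, against 52.2% of protein-coding genes. The number was 34 in OPCs, against 49.5%, and 28 in NFOs, against 38.9%. A gene is called bivalent where every K4 or K27 peak near its start sites overlaps a peak of the other mark by at least 1 bp, and mixed where it has both marks in any other arrangement. NSCs had 2 bivalent genes (Acly and Ugt8a, against 5.3%), while OPCs and NFOs had 0, against 2.99% and 1.56%. Mixed were Srebf1, Srebf2 and Elovl7 in NSCs and Srebf1 and Acly in OPCs. The shares are over genes of every kind, and no K4 or K27 count here is read as particular to lipid synthesis. Of 29 other genes of the same pathways, described further below, 4 had K27 in each cell type, NFOs included.

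**Figure D1:**
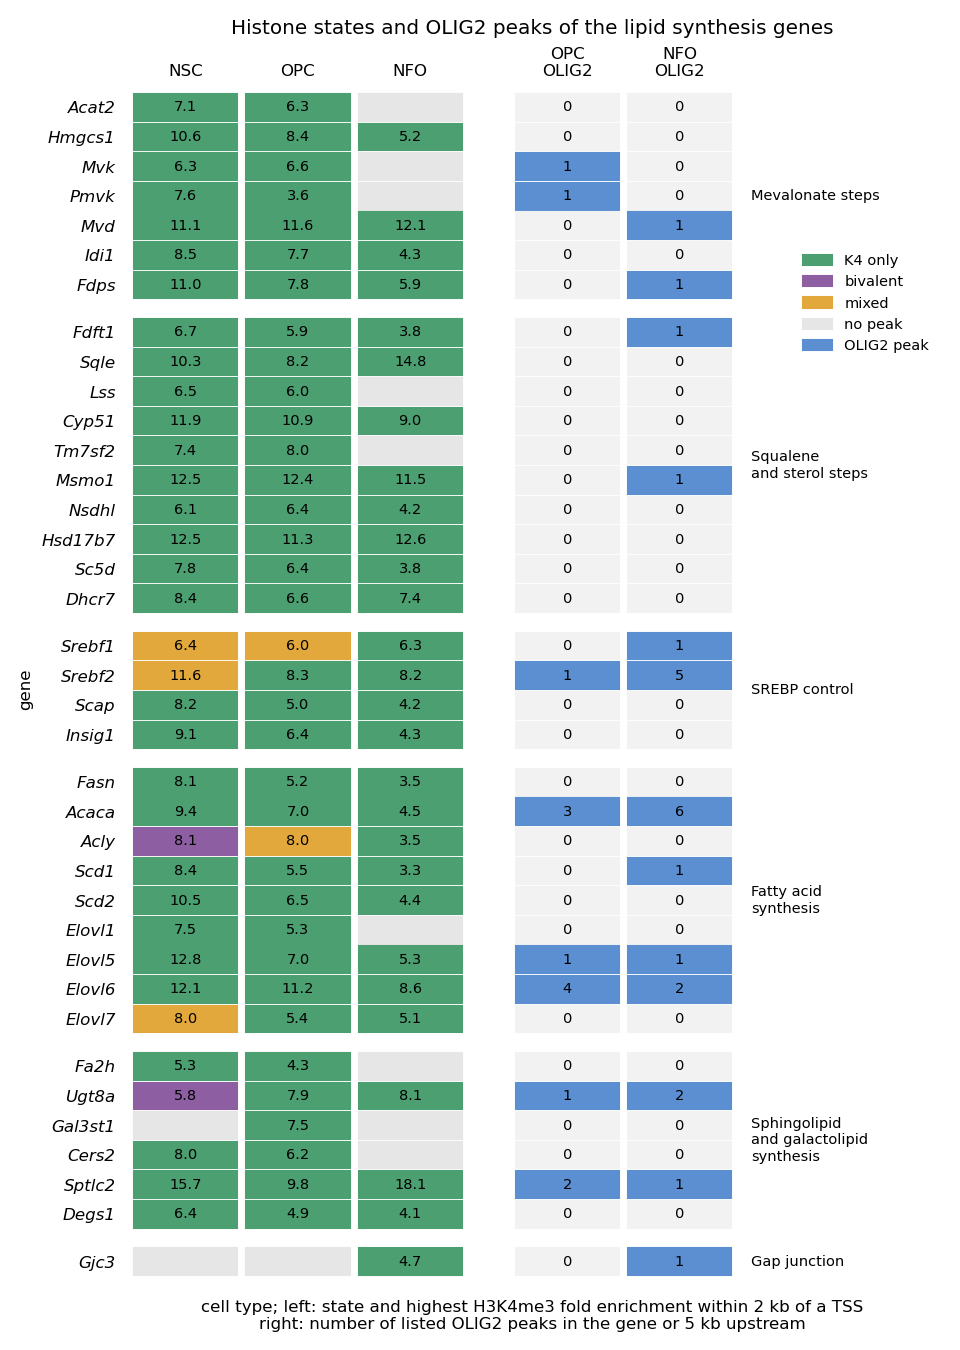
Each row is a gene, grouped by role. The 3 columns on the left give the state in NSCs, OPCs and NFOs by colour with the highest H3K4me3 fold enrichment within 2 kb of a TSS as a number, and the 2 columns on the right give the number of listed OLIG2 peaks in the gene or 5 kb upstream. Green for K4 alone fills most of the grid, bivalent and mixed states stand only in NSCs and OPCs, and 9 genes with K4 in OPCs are grey in NFOs.

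From NSCs to OPCs 1 gene gained a K4 peak (Gal3st1, against 1.28% of protein-coding genes) and 0 lost it (4.83%). Over the same step 3 genes lost K27 (7.9%), 0 gained it (9.18%) and 5 changed state (23.3%). From OPCs to NFOs 1 gene gained K4 (Gjc3, against 1.42%), 9 lost it (18.6%) and 12 changed state (28.3%). Genes that lost K4 in NFOs were 9 of the 36 with a K4 peak in OPCs, or 25.0%, and the same share over protein-coding genes was 30.6%. The loss among the lipid genes was thus close to that of the library as a whole. OPCs enter both steps, so the steps are not independent.

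Ugt8a makes galactosylceramide, the main galactolipid of myelin. Both marks lay within 2 kb of its start sites in NSCs, and K4 alone afterwards. The gene lies on the minus strand at chr3:125865271-125938619. In NSCs a K4 peak with a fold enrichment of 5.56 ran from -405 to 1557 bp relative to the outermost TSS and overlapped a K27 peak of 5.0 at 1416 to 2858 bp. A further pair lay upstream, with K4 at 5.84 and K27 at 6.26. Neither K27 peak covered the outermost TSS, and the wide K4 peak shared less than 200 bp with its K27 peak. With an overlap of at least 200 bp required, Ugt8a counted as mixed and not as bivalent. In OPCs K4 stood alone with 7.94 over 2133 bp, and in NFOs with 8.15 over 958 bp, which began 748 bp inside the gene. The percentile of its K4 enrichment went from 18.4 in NSCs to 74.5 in OPCs, and stood at 73.6 in NFOs. All of these peaks passed the stricter filter that the methods of the study name, which asks for more than 3.5 in fold enrichment at an FDR under 0.05.

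OLIG2 peaks lay in the first part of Ugt8a in both cell types but at different places, 10435 bp apart. The OPC peak (chr3:125925280-125925509, fold enrichment 11.0) had its centre in an intron 13225 bp inside the gene. The NFO peak (chr3:125935944-125936179, fold enrichment 17.0) was the strongest NFO peak at any of the 37 genes and had its centre 2558 bp inside the gene. That site fell within the NSC K27 peak of 5.0 described above. It held small K4 peaks of 5.57 over 192 bp in OPCs and 4.69 over 212 bp in NFOs. A weaker NFO peak of 3.20 lay 58475 bp inside the gene and did not pass the filter for OLIG2 (FDR below 0.05, fold enrichment above 5). The peaks are shown along the gene, with E-boxes in capitals. The OPC peak holds 4 and the stronger NFO peak 0, and the latter ends in a long run of T.
Ugt8a OPC OLIG2 peak: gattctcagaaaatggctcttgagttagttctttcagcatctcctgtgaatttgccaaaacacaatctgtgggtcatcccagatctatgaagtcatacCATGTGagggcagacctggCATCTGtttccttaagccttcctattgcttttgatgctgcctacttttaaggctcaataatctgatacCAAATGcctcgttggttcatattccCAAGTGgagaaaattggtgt
Ugt8a NFO OLIG2 peak: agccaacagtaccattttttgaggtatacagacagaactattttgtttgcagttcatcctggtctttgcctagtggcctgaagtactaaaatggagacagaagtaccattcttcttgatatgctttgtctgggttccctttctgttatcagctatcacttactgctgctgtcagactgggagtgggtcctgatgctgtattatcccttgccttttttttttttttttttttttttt

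Gal3st1 adds the sulfate that turns galactosylceramide into sulfatide, and Gjc3 encodes a connexin of myelinating glia. These were the 2 genes without K4 in NSCs, where the nearest K4 peak was 18057 bp from a TSS of Gal3st1 and 121638 bp from a TSS of Gjc3. Gal3st1 had a K4 peak only in OPCs, with a fold enrichment of 7.51 over 434 bp, 61 to 494 bp after its outermost TSS. In NFOs its nearest K4 peak was 18794 bp away. Gjc3 had none in OPCs (122038 bp away) and a K4 peak of 4.69 over 840 bp in NFOs, 598 to 1437 bp after its outermost TSS. An NFO OLIG2 peak of 5.69 was centred upstream of Gjc3, at -2836 bp, and no OLIG2 peak was listed at Gal3st1 in either cell type. Neither gene had a K27 peak within 2 kb of a TSS at any stage. Both K4 peaks passed the filter, and a fold enrichment above 5 would keep that of Gal3st1 and drop that of Gjc3.

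The 250 bases before the RefSeq start (GRCm38.p6) are shown for Ugt8a, Gal3st1 and Gjc3, whose marks differed between the cell types, with CCAAT and GGGCGG in either direction in capitals. They lie at chr3:125938653-125938902 for Ugt8a, chr11:3983386-3983635 for Gal3st1 and chr5:137963099-137963348 for Gjc3, and their GC content is 76.8%, 65.6% and 48.8%.
Ugt8a upstream: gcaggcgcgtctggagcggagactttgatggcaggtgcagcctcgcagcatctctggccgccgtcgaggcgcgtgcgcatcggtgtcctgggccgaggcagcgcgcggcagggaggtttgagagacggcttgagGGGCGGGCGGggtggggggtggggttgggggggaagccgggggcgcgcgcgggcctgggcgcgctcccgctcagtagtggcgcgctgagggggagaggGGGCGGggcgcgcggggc
Gal3st1 upstream: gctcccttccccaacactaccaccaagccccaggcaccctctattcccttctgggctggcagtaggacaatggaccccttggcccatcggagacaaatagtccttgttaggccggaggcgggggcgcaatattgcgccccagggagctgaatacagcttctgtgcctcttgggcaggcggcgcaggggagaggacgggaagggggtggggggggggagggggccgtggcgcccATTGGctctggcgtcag
Gjc3 upstream: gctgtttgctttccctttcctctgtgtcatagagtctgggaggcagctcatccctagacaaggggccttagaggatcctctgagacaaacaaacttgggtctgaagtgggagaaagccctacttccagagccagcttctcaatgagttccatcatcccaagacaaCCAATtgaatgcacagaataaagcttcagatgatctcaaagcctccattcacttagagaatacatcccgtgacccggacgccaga

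**Figure D2:**
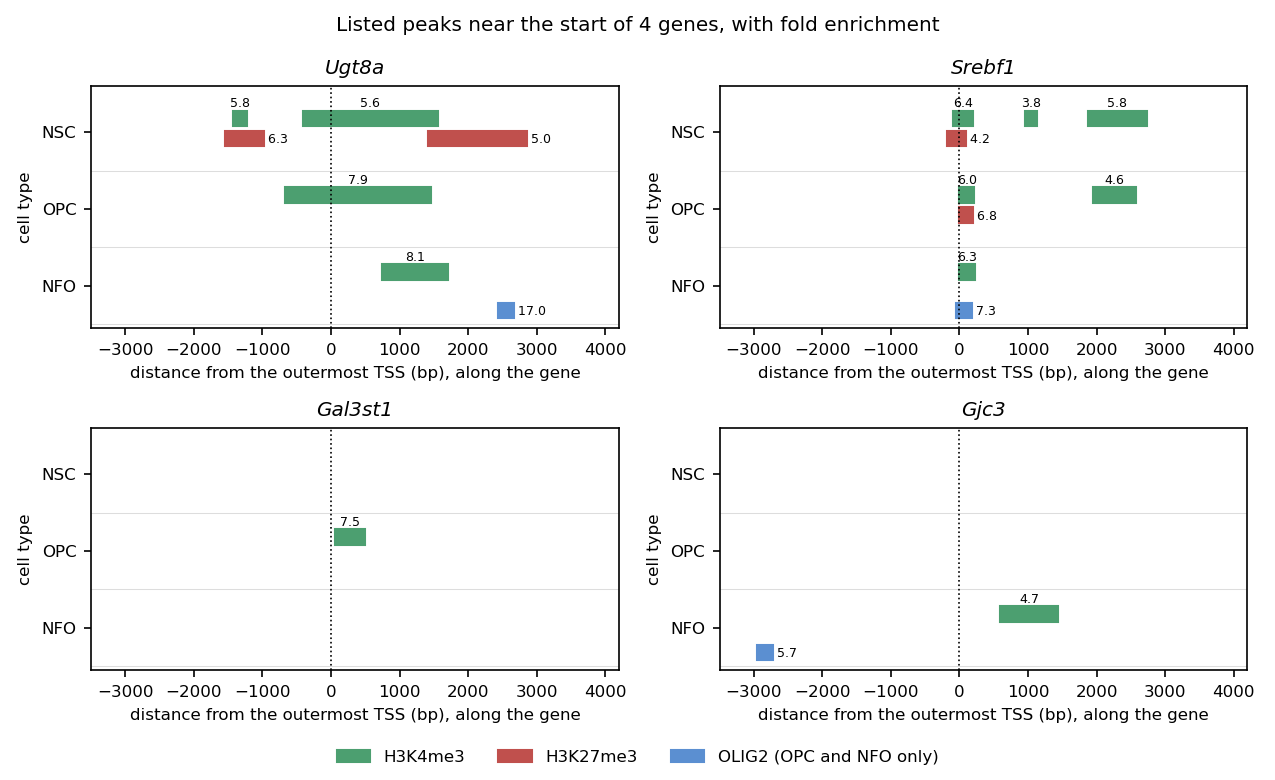
Listed K4 and K27 peaks within 2 kb of a TSS, and listed OLIG2 peaks, near the outermost TSS of 4 genes, as bars against distance in bp along the gene, with a row for each cell type and fold enrichments as numbers. Ugt8a has K27 (red) in NSCs only and an NFO OLIG2 peak (blue) of 17.0 at the place of the NSC K27 peak, Srebf1 has overlapping narrow K4 and K27 peaks at its TSS in NSCs and OPCs, and Gal3st1 and Gjc3 each have a K4 peak in a single cell type. The small K4 peaks under the Ugt8a OLIG2 peak lie over 2 kb from any TSS and are not drawn.

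The SREBP genes encode the membrane-bound transcription factors that switch on sterol synthesis (Srebf2) and fatty acid synthesis (Srebf1). Srebf1 lies on the minus strand at chr11:60199089-60222581 and carried K27 at its outermost TSS in NSCs and OPCs. In NSCs 4 K4 peaks of 3.82 to 6.44 were spread over its start sites, and the peak of 6.44 at the outermost TSS overlapped a K27 peak of 4.21 over 276 bp. In OPCs 2 K4 peaks were listed, 4.63 and 5.99, and the latter overlapped a K27 peak of 6.75 over 201 bp. In NFOs a K4 peak of 6.34 over 229 bp was left there, with no K27. An NFO OLIG2 peak of 7.31 (chr11:60222401-60222636) was centred 63 bp after the same TSS, and its bases hold a long run of A. The K4 and K27 peaks of OPCs at this TSS and the NFO K4 peak all ended at base 60222581, and the 5 histone peaks at this site were 201 to 287 bp wide, so 6 lists of different targets hold a narrow peak at the same spot. Annotated starts of Mir6922 and Mir6921 lie 112 and 423 bp from the nearest of the 12 start sites of Srebf1, which need not be the outermost one. A peak near those start sites cannot be given to a single gene by its position.

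Srebf2 carried the stronger K4. NSCs had a fold enrichment of 11.6 (percentile 86.5), OPCs 8.28 (78.5) and NFOs 8.22 (73.7). The peak was 3827 bp wide in NSCs and 2524 bp in OPCs, and in NFOs it was 1028 bp wide and began 751 bp from the nearest TSS. A K27 peak of 2.99 over 1058 bp was listed in NSCs near an inner start site, 47733 bp inside the gene, and did not pass the filter. The other genes of SREBP control are Scap, which escorts SREBP out of the endoplasmic reticulum, and Insig1, which holds it back. They had K4 alone at all 3 stages, at 8.19, 4.98 and 4.22 for Scap and 9.10, 6.45 and 4.27 for Insig1.

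Srebf2 had 5 NFO OLIG2 peaks in its introns and 1 OPC peak. The NFO list is also the longer, with 16911 peaks against 7384. The 5 fold enrichments were 13.5, 5.93, 13.7, 10.7 and 11.4 at 3195, 11630, 22349, 29866 and 45205 bp from the outermost TSS, and the OPC peak of 6.93 lay at 10839 bp. The NFO peak of 5.93 was 559 bp from the OPC peak, and they did not overlap. Peaks in both cell types were found at 6 genes, and at 0 of them did an OPC peak overlap an NFO peak. The same share over the 2148 protein-coding genes with peaks in both was 34.6%, and of all listed peaks 14.3% in OPCs and 6.26% in NFOs overlapped a peak of the other cell type. The strongest NFO peak in Srebf2 (chr15:82169413-82169648) holds 1 E-box, in capitals.
Srebf2 NFO OLIG2 peak: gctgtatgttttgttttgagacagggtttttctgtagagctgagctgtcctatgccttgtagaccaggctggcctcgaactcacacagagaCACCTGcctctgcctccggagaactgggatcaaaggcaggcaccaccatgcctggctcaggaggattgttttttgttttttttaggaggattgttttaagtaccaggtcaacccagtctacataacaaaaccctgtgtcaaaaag

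The mevalonate steps turn acetyl-CoA into farnesyl diphosphate. All 7 genes (Acat2, Hmgcs1, Mvk, Pmvk, Mvd, Idi1 and Fdps) had K4 alone in NSCs and OPCs, and 4 of them did in NFOs. Mvd, the decarboxylase, was steady near the top of each library, with 11.1, 11.6 and 12.1 in the order NSCs, OPCs, NFOs, the order used from here on, and percentiles of 82.9, 94.3 and 85.5. Hmgcs1, which makes the substrate of HMG-CoA reductase, had 10.6, 8.35 and 5.18, with percentiles of 78.4, 79.4 and 52.7. Its K4 peak stayed wide, with 3671, 2536 and 2318 bp, and was the widest of all 28 in NFOs. Pmvk had the weakest K4 of the list in OPCs, with 3.56 and a percentile of 0.716. Acat2, Mvk and Pmvk had no K4 peak in NFOs. Idi1 had 8.48, 7.68 and 4.30, and Fdps had 11.0, 7.77 and 5.91, the latter over 222 bp. OLIG2 peaks were listed at Mvk (5.29, at -2437 bp) and Pmvk (8.01) in OPCs and at Mvd (13.1) and Fdps (4.19, below the filter) in NFOs.

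The 250 bases before the start of Hmgcs1 (chr13:119690101-119690350, GRCm38.p6) are shown since they hold a sterol regulatory element, the site that SREBP binds, spelled TCACNCCAC here. Capitals mark it, 137 bases before the start, with CCAAT (the NF-Y site) and GGGCGG (the SP1 site) in either direction.
Hmgcs1 upstream: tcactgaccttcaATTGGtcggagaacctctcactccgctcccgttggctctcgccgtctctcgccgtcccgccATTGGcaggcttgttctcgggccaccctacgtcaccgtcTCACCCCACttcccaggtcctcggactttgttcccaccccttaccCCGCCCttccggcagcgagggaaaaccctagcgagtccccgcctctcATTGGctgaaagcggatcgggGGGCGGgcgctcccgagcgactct
RefSeq promoters were matched for 31 of 37 genes (41 promoters) and were not matched for Sqle, Fdps, Fdft1, Fa2h, Scd1 and Scd2. TCACNCCAC was found in 1 of these 41, against 1.05% of all 32851 promoters. CCAAT was found in 25 of 41, or 61.0%, against 33.8% of all promoters and 35.3% of those of genes with a K4 peak in OPCs. GGGCGG was found in 63.4%, against 32.7% and 58.2%. The E-box CACGTG was found in 8 of 41, or 19.5%, against 6.02% and 8.08%, and CANNTG, which contains it, in 70.7%, against 66.2% and 57%. All motifs were searched on both strands of the 250 bases. Promoters of the same gene can overlap, and a match is not a bound site.

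The squalene and sterol steps close the ring and trim it to cholesterol. All 10 genes had K4 alone in NSCs and OPCs, and 8 did in NFOs, all but Lss and Tm7sf2. Msmo1, a sterol methyl oxidase, had 12.5, 12.4 and 11.5, and Hsd17b7, a sterol ketone reductase, had 12.5, 11.3 and 12.6. Their percentiles ran from 84.0 to 95.5 and from 86.8 to 93.6, so both were high in every library. The NFO value of Msmo1 came from a peak of 377 bp inside the gene, and the peak at its TSS had 8.34. That of Hsd17b7 came from a peak of 908 bp upstream of the TSS, and no NFO K4 peak covered a TSS of this gene. Sqle, squalene epoxidase, had 10.3 and 8.21 in NSCs and OPCs and 14.8 in NFOs, but that NFO peak was 233 bp wide and lay upstream of the TSS, while the wider NFO peak of 1728 bp had 4.41. Cyp51 had 11.9, 10.9 and 9.02, but the NFO peak was 254 bp wide and lay upstream of the TSS, and the other NFO peak had 4.11. Lss had 6.45 and 5.99 in NSCs and OPCs, and Tm7sf2 had 7.42 and 8.02. The others, Fdft1, Nsdhl, Sc5d and Dhcr7, lay between 6.08 and 8.4 in NSCs and between 3.79 and 7.39 in NFOs. No gene of these steps had an OLIG2 peak in OPCs, and in NFOs Fdft1 (7.79) and Msmo1 (10.2) each had 1 in an intron.

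Fatty acid synthesis starts from citrate and acetyl-CoA, and the elongases then build the very long chains found in myelin. All 9 genes had K4 in NSCs and OPCs, and Elovl1 alone had none in NFOs. K27 touched 2 of them. Acly, which makes cytosolic acetyl-CoA, had a K4 peak of 8.10 over 4581 bp in NSCs that overlapped a K27 peak of 2.61 over 274 bp about 2 kb upstream of the TSS. In OPCs a K27 peak of 2.90 over 1036 bp lay upstream of the K4 peak of 8.0 without touching it, and in NFOs no K27 was listed and the K4 peaks had 3.5 and 3.46. Elovl7, a further elongase, had a K27 peak of 3.26 in NSCs with a K4 peak of 3.36 on it upstream of the TSS, apart from its main K4 peak of 8.0. Later it had K4 alone, at 5.39 and 5.05. These K27 peaks of Acly and Elovl7 did not pass the filter, and under it both genes had K4 alone.

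Fasn, the fatty acid synthase, and Scd1, a stearoyl-CoA desaturase, had ordinary K4 in NSCs (8.13 and 8.35) and among the weakest in NFOs. Their NFO values were 3.49 (percentile 11.2) and 3.28 (percentile 6.45), and both fell below the filter. Scd2, the main desaturase of brain, had the widest K4 peak of the list in NSCs (7105 bp, 10.5) and OPCs (4018 bp, 6.52), and 4.39 over 1539 bp in NFOs. Elovl5 and Elovl6 had K4 of 12.8 and 12.1 in NSCs, 7.00 and 11.2 in OPCs and 5.29 and 8.63 in NFOs. Elovl1, an elongase of saturated very long chains, had 7.45 and 5.28 before its K4 was missing in NFOs. Acaca also has start sites near an inner K4 peak, which began 49037 bp inside the gene in NSCs. The outer and the inner peak had 9.37 and 6.51 in NSCs and 6.97 and 4.91 in OPCs, and in NFOs the outer one alone was listed, at 4.47.

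**Figure D3:**
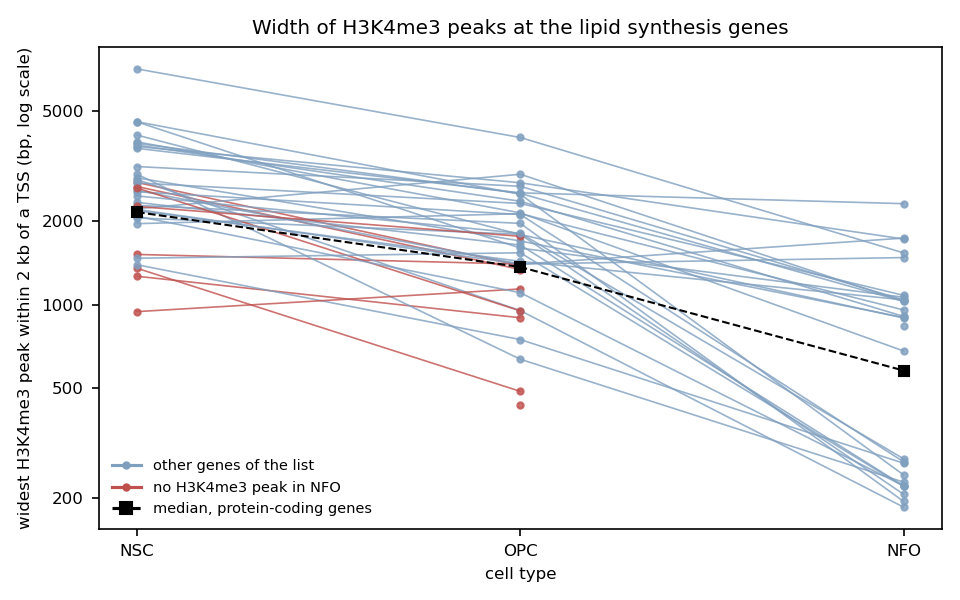
Width of the widest H3K4me3 peak within 2 kb of a TSS in bp on a log scale, for each gene with a peak (points joined across cell types) and as the median over protein-coding genes with a peak (black squares). The listed genes had medians of 2591, 1672 and 898 bp from left to right, above the medians of all genes at each stage, and the genes without a K4 peak in NFOs (red) lay between 434 and 1767 bp in OPCs.

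OLIG2 peaks in the fatty acid genes were concentrated in the long genes Acaca and Elovl6. Acaca, the acetyl-CoA carboxylase that commits acetyl-CoA to fatty acids, is 271980 bp long and had 3 OPC peaks of 5.43 to 6.84 and 6 NFO peaks of 5.19 to 12.5, all in introns. Its nearest OPC and NFO peaks were 506 bp apart. Elovl6 (106141 bp) had 4 OPC peaks of 6.57, 6.78, 13.1 and 17.7, and the latter was the strongest OPC peak at any of the 37 genes. In NFOs its 2 peaks had 5.55 and 4.71. Elovl5 had an OPC peak of 5.5 at 1441 bp inside the gene, on its K4 peak, and an NFO peak of 10.5 that was centred upstream, at -1052 bp. Scd1 had an NFO peak of 9.06 at -2123 bp. The strongest OPC peak in Elovl6 (chr3:129612604-129612833) holds the E-box CAGCTG, and the NFO peak before Elovl5 (chr9:77916195-77916430) holds 3 E-boxes, in capitals.
Elovl6 OPC OLIG2 peak: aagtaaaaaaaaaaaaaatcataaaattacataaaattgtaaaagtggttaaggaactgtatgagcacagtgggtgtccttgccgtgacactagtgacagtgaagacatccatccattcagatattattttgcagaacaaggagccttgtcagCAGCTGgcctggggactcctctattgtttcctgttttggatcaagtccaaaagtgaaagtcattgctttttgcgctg
Elovl5 NFO OLIG2 peak: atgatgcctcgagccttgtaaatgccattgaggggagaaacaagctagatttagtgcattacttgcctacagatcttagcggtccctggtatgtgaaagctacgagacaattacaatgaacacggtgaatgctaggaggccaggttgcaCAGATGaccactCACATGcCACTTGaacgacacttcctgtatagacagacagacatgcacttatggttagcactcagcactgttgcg

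Sphingolipid synthesis begins with serine palmitoyltransferase and leads through ceramide to galactosylceramide and sulfatide. Besides Ugt8a and Gal3st1, the group holds Sptlc2, Degs1, Cers2 and Fa2h, all with K4 alone in NSCs and OPCs. Sptlc2, a subunit of serine palmitoyltransferase, had the strongest K4 of the list in NSCs, with 15.7 over 2472 bp and a percentile of 98.6. It had 9.85 over 1812 bp in OPCs (89.4) and 18.1 in NFOs (95.1), where the peak was only 278 bp wide. Degs1, which makes the ceramide double bond, had 6.41, 4.86 and 4.12. Cers2, the ceramide synthase of very long chains, had 7.96 and 6.20 in NSCs and OPCs and none in NFOs. Fa2h, which adds the 2-hydroxyl group of myelin galactolipids, was at the low end with 5.35 (percentile 14.6) and 4.26 (7.55), and also had none in NFOs.

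Sptlc2 had an OPC OLIG2 peak of 12.4 centred 916 bp inside the gene (chr12:87387325-87387554). It lay on the K4 peak of all 3 cell types, and the narrow NFO K4 peak (chr12:87387208-87387485) was at the same place. A further OPC peak of 5.44 and an NFO peak of 5.75 lay 52689 and 67139 bp inside the gene. The peak near the start is shown with its E-box in capitals.
Sptlc2 OPC OLIG2 peak: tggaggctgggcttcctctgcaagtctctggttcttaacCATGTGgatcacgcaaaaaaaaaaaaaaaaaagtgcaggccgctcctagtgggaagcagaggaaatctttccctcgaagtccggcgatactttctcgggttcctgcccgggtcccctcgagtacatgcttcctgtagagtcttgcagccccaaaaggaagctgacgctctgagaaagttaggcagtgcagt

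**Figure D4:**
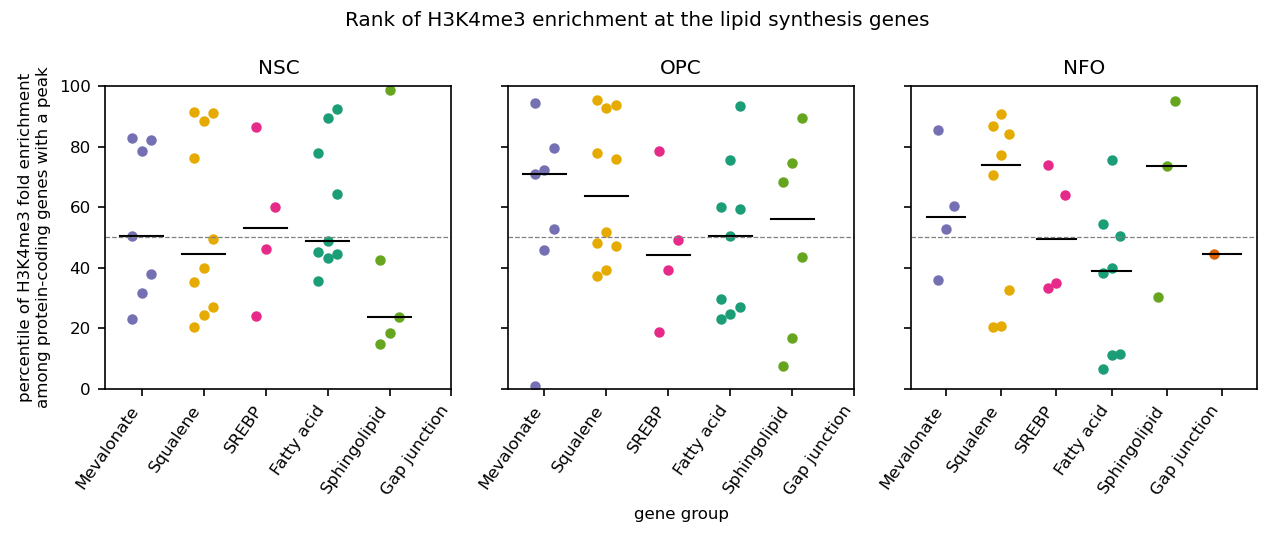
Percentile of each gene's highest H3K4me3 fold enrichment among protein-coding genes with a K4 peak in the same library, by gene group and cell type, with the group median as a black line and percentile 50 dashed. Medians over the listed genes were 46.1, 52.3 and 51.7 from left to right, and the points spread from 14.6 to 98.6 in NSCs, from 0.716 to 95.5 in OPCs and from 6.45 to 95.1 in NFOs.

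As a set the lipid genes lay near the middle of each library in K4 strength. Above percentile 50 were 15 of the 35 genes with a K4 peak in NSCs, 20 of 36 for OPCs and 15 of 28 for NFOs. Medians of fold enrichment were 8.19, 6.61 and 5.12, against 8.44, 6.5 and 5.02 over protein-coding genes with a peak. Squalene and sterol genes had median percentiles of 44.6, 63.7 and 73.8, mevalonate genes 50.5, 70.9 and 56.6, and fatty acid genes 48.6, 50.4 and 38.9. SREBP control genes had 53.1, 44.2 and 49.5. Sphingolipid and galactolipid genes had 23.8, the lowest group median in NSCs, then 56.0 and 73.6. Genes without a K4 peak drop out of these medians, so they do not follow the same genes across cell types. Sphingolipid and galactolipid medians rest on 5, 6 and 3 genes, mevalonate medians on 7, 7 and 4, and squalene and sterol medians on 10, 10 and 8. These percentiles use the highest peak, and the NFO values of Sqle, Cyp51 and Sptlc2 come from peaks of 233, 254 and 278 bp. With the widest peak instead, the medians over the listed genes were 46.2, 52.5 and 42.8, and group medians were not taken that way. In NFOs 11 of 28 widest peaks were under 500 bp (39.3%, against 45.4% of protein-coding genes), and the K4 peak covered a TSS in 10 of 28 genes (35.7%, against 42.3%).

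The 9 genes that had K4 in OPCs and none in NFOs were Acat2, Mvk, Pmvk, Lss, Tm7sf2, Elovl1, Fa2h, Gal3st1 and Cers2. In OPCs their K4 fold enrichments ran from 3.56 to 8.02 with a median of 6.20 and a median percentile of 43.6. The 27 genes that kept K4 had 4.86 to 12.4 in OPCs with a median of 7.00 and a median percentile of 60.0. Over protein-coding genes the median percentiles in OPCs were 24.4 without and 62.5 with a K4 peak in NFOs, so a weaker K4 in OPCs went with its absence in NFOs in the list and in all genes.

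OLIG2 peaks in the gene or 5 kb upstream were listed for 8 of 37 genes in OPCs, against 16.5% of protein-coding genes, and for 13 in NFOs, against 28.2%. Peaks in both cell types were listed for 6 genes (Srebf2, Acaca, Elovl5, Elovl6, Ugt8a and Sptlc2), against 9.79%, and in either for 15, against 34.9%. These counts were near or slightly above the background. Gene length differed with them. Of 9 genes over 50 kb, 6 had an OPC peak and 6 an NFO peak, against 38.5% and 61.3% of protein-coding genes of that length. Of 21 genes under 20 kb it was 2 and 5, against 7.17% and 12.3%, and of 7 genes between 20 and 50 kb it was 0 and 2, against 16.4% and 32.4%. The part of gene length in the counts was not tested.

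**Figure D5:**
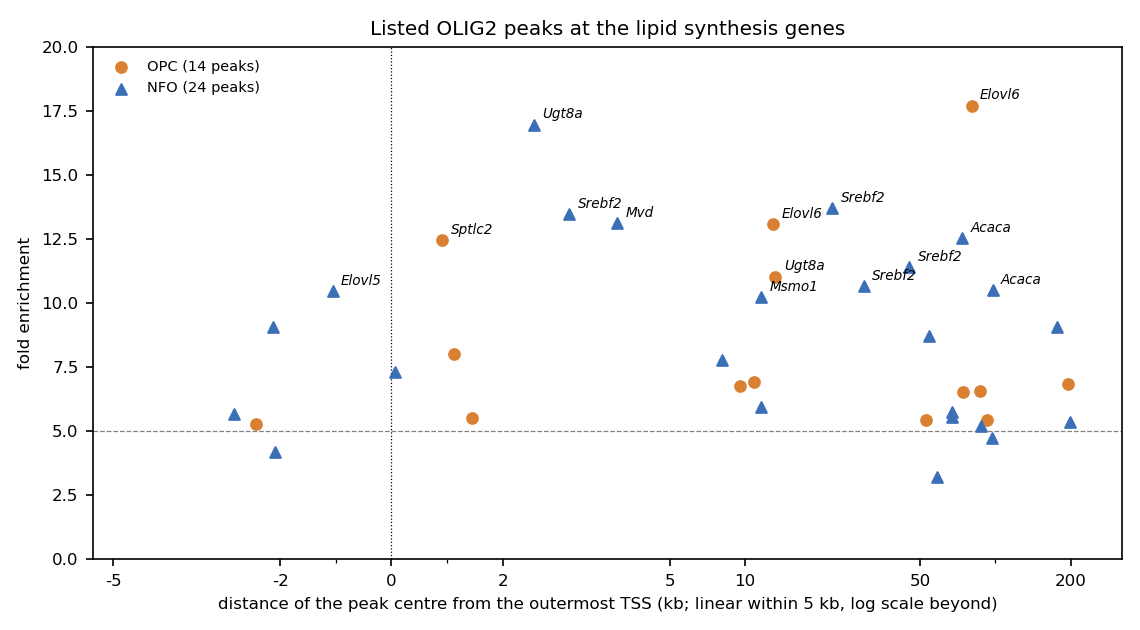
Listed OLIG2 peaks at the 37 genes, by distance of the peak centre from the outermost TSS in kb (linear within 5 kb, log scale beyond) and fold enrichment, for OPCs (circles, 14 peaks) and NFOs (triangles, 24 peaks), with genes named above a fold enrichment of 10 and the filter of 5 dashed. The strongest NFO peak is in Ugt8a near the TSS and the strongest OPC peak is in Elovl6, and most peaks lie inside the genes.

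The genes held 14 OPC and 24 NFO peaks. In introns lay 13 and 20 of them, against 74.5% and 78.5% over the peaks of all protein-coding genes, and 3 in each cell type lay within 2 kb of a TSS of the gene, against 28.7% and 22.1%. Fold enrichments ran from 5.29 to 17.7 in OPCs with a median of 6.81, against 8.03 over the whole list, and from 3.20 to 17.0 in NFOs with a median of 8.88, against 8.12. On a K4 peak of the same cell type lay 2 OPC peaks (at Elovl5 and Sptlc2) and 2 NFO peaks (at Srebf1 and Ugt8a), against 12.6% and 8.23% of the lists. On an NSC K4 peak lay 7 of 14 OPC peaks, against 21.6% of that list, and 7 of 24 NFO peaks, against 14%. These NSC K4 peaks had fold enrichments from 2.86 to 15.7. The lists also hold peaks outside genes, so shares over a whole list are not a matched base for peaks chosen in or near genes. On a K27 peak of the same cell type lay 0 OPC and 0 NFO peaks, against 10.5% and 2.44%. The E-box CANNTG was found in 10 of 14 OPC peaks (70.4% of all listed peaks) and in 17 of 24 NFO peaks (69.3%), so E-boxes were as frequent here as in the lists. The SOX motif ACAAAG was found in 4 and 6 of them, against 19.5% and 20.5%, and the E-box CATCTG in 2 and 6, against 18.9% and 17.4%. Among the peaks shown, long runs of A or T stand in the strongest NFO peak (Ugt8a), the strongest OPC peak (Elovl6) and the OPC peak near the start of Sptlc2. Many peaks not shown hold such runs too, among them those at Mvk, Pmvk, Fdft1, Msmo1, Srebf1 and Scd1. Those at Fdps and Gjc3 have only shorter ones, and the runs were not counted over all peaks. The Srebf2 peak shown has shorter runs of T, and the Ugt8a OPC and Elovl5 NFO peaks have no such run. The part of these runs in the peak lists was not tested.

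RIP-Seq sites were listed on transcripts of 2 of the 37 genes, Hmgcs1 and Lss, in both the OLIG2 and the IgG list. Of protein-coding genes 2.53% had an OLIG2 site and 2.55% an IgG site. On Hmgcs1 (transcript ENSMUST00000179869.1, 132 RPKM as listed) OLIG2 had 2 sites in the 3′ UTR. Each is listed with a span of 1 base and with a start and an end at adjacent positions. The site at chr13:119706977-119706978 had 130 tags with OLIG2 (exact Poisson 95% interval 109 to 154) and 133 with IgG (111 to 158). At chr13:119707332-119707333 OLIG2 had 124 tags (103 to 148), and no IgG site was listed. The ratio of OLIG2 to IgG tags at the shared site was 0.977 (exact binomial 95% interval 0.762 to 1.25), so the 2 libraries were not distinguishable there. Summed over listed sites it was 1.91 (1.54 to 2.37), a value that rests wholly on the site that IgG lacks. The intervals cover counting error only. The p-values listed were 0.00907 and 0.00989 for OLIG2 and 0.00976 for IgG, each close to the largest p-value in either list, 0.01, and the FDR of both OLIG2 sites is given only as below 0.451. At 133 tags IgG was thus barely listed, and a slightly smaller pile at the other site would be missing from the list. Both sites are shown as 30 bases of the gene strand, with the listed start and end positions in capitals.
Hmgcs1 shared site: aaaatggcaaggcaAAcatttatctttttc
Hmgcs1 OLIG2 site: agactgacagcttcAAttcacgggacacct

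A list of 29 other genes of the same pathways was described in the same way. NSCs had K4 at 29 of the 29, OPCs at 26 and NFOs at 19, and K27 at 4 in each cell type. From OPCs to NFOs 9 lost K4 and 2 gained it. Those with K27 in NSCs were Mbtps2, a protease that activates SREBP, Degs2, Elovl3 and Acacb. Mbtps2 had K4 of 12.7, 12.9 and 11.9 and lost K27 after NSCs, while Degs2, Elovl3 and Acacb had K27 alone in OPCs. Elovl3, an elongase best known from skin and brown fat, still had K27 alone in NFOs. Smpd1, the lysosomal sphingomyelinase, had K4 of 12.5, 18.5 and 31.4, with percentiles of 91.3, 99.2 and 99.7. OLIG2 peaks were listed for 7 of 29 in OPCs, 12 in NFOs and 5 in both, with the strongest at Cers6 in OPCs (17.5) and Mbtps2 in NFOs (14.8).

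Neighbours limit some of these values. A TSS of another gene lay within 2 kb of a TSS of 14 of the 37 genes, and for 6 of them it was a protein-coding gene (Mmab for Mvk, Gm43738 for Fdps, Vps51 for Tm7sf2, Cetn2 for Nsdhl, Nadsyn1 for Dhcr7 and Tada2a for Acaca). K4 at these starts cannot be given to a single gene.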

How the data were processed

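Peak lists of 8 ChIP-Seq and site lists of 2 RIP-Seq libraries were used, each from 1 library, while NSC OLIG2 peaks and the 3 libraries of input DNA were left out and not analysed here. The authors mapped reads with Bowtie2 to mm10 (GRCm38), called K4 and K27 peaks with MACS2 and OLIG2 peaks with SPP in each library, and listed RIP-Seq sites with ASPeak; versions are not given in the sources used here. The deposited lists give the fold enrichment of each peak, a ratio to the control, and the −log10 of the FDR, and for the histone marks also the −log10 p. Per the deposited RIP-Seq lists, each site has a whole-number tag count, the authors' p-value and the RPKM of its transcript, listed with the same value for Hmgcs1 in both libraries. The depth of no library is known. The result for 1 marker gene is not reported here.

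All listed peaks were used. Genes and start sites came from GENCODE release M21. A histone peak belonged to a gene within 2 kb of any TSS, and an OLIG2 peak in the gene or 5 kb upstream, by 1 bp. When a gene had several K4 peaks, the highest fold enrichment was taken. With 1 library per condition no test between groups was made; counts stand beside those over all protein-coding genes. Genes, lists and motifs were chosen with earlier results of these data known. Named with full values are genes whose state differed, that had K27, OLIG2 peaks in both cell types or among the 3 highest in a cell type, or the 3 highest or lowest K4 percentiles, and Hmgcs1; other genes named beside these were chosen after their values were seen. State assignment was tested on simulated data, and 2000 of 2000 states were recovered. RIP-Seq tags have exact Poisson 95% intervals, and their ratios exact binomial ones. Sequences came from the GRCm38.p6 genome and RefSeq promoters. Alternatives were the filter of the study's methods, stricter fold enrichments, other distances, overlaps and widths, 1 TSS per gene, the widest peak, all annotated genes, and for RIP-Seq the scaling, shared sites and a p-value below 0.01. Gene length classes, promoters of genes with K4 in OPCs, OLIG2 peaks of all protein-coding genes and genes with RIP-Seq sites were added as backgrounds after seeing the data. Python 3.11.15, NumPy 2.4.6, SciPy 1.17.1, pysam 0.24.0 and Matplotlib 3.10.9 were used.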

Additional observations from a re-analysis of the deposited data

How the results depend on the processing

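Across 45 results, 152 of 203 alternative values stayed within 1.5 times the reported count, percentile or share, or for the RIP-Seq ratio within its interval, and 51 did not. The K4 counts in NSCs and OPCs and the median percentiles were among those that stayed. The count of 0 for K27 in NFOs is also among the 152, but the alternatives only take peaks away, so it could not have changed. K27 rested on few weak peaks. Under the filter of the methods (FDR below 0.05, fold enrichment above 3.5), genes with K27 numbered 2 in NSCs and 1 in OPCs, bivalent genes in NSCs 1, mixed genes 1 in NSCs and 1 in OPCs, losses of K27 1 from NSCs to OPCs and 1 from OPCs to NFOs, and changes of state from NSCs to OPCs 2. A fold enrichment above 5 left K4 at 15 genes in NFOs (15 with K4 alone, 22 with no peak), 15 with K4 in all stages, 5 with no peak in OPCs, 4 and 17 losses of K4 over the 2 steps and 0 gains from OPCs to NFOs. It left K27 at 1 gene in NSCs and 1 in OPCs, with 1 gain and 1 loss from NSCs to OPCs and 1 loss from OPCs to NFOs, 0 bivalent and 1 mixed gene in NSCs, and 1 bivalent and 0 mixed in OPCs. A TSS distance of 1 kb gave K27 at 3 genes in NSCs and 1 in OPCs, 1 mixed gene in OPCs and 1 loss of K27 from OPCs to NFOs. K27 peaks of at least 1 kb gave K27 at 2 genes in NSCs and 1 in OPCs, 0 bivalent genes in NSCs, 1 mixed gene in OPCs, and 1 gain and then 1 loss of K27. An overlap of 200 bp left Acly as the 1 bivalent gene in NSCs, with Ugt8a mixed. Taking 1 TSS per gene gave 2 genes without a peak in OPCs and 1 loss of K4 from NSCs to OPCs. For OLIG2, a fold enrichment above 10 left 3 genes in OPCs, 6 in NFOs, 1 in both and 8 in either, and 5 kb upstream to 2 kb downstream of a TSS alone left 4, 7 and 1 in OPCs, NFOs and both. Over all annotated genes the background shares with K4 were 34.7%, 31.0% and 23.0% in NSCs, OPCs and NFOs, and those with OLIG2 peaks 8.77% in OPCs and 15.8% in NFOs. The Hmgcs1 ratio was 0.977 on the shared site alone. Why these values moved follows from the stricter rules themselves, which keep fewer peaks or count more genes. No paired analysis was possible because each condition has 1 library and no result comes from a test. Without replicates or depths, none of these values can be set against a spread between animals or cultures.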

Other observations

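Lss, lanosterol synthase, which forms the first sterol of the pathway, was the other listed gene with RIP-Seq sites. OLIG2 had 58 sites with 443 tags on its transcripts and IgG 64 sites with 725 tags. No OLIG2 site on Lss had more than 29 tags, and no IgG site more than 30. The sites were listed separately in each library and partly on different transcripts, so the sums give no ratio of levels.

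The NFO OLIG2 peak before Scd1 (9.06) and the one before Fdps (4.19) each overlapped an NSC K4 peak, of 3.44 and 3.61, that lay outside the main K4 peak of the gene. The OPC peak before Mvk (5.29) likewise overlapped an NSC K4 peak of 3.43, and no K4 peak of OPCs or NFOs was listed at these 3 places.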
